A study of Mus musculus with 15 samples.

Results

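Metallothioneins and antioxidant genes were followed as a list of 10 genes, taken by gene name from the deposited gene table of 54532 genes. All 10 were found. The table holds poly-A RNA sequencing of left ventricles taken on day 8 from female C57BL/6JRj mice of 12 to 18 weeks, in 3 groups of 5 libraries. The GSK group received GSK-343, an inhibitor of the histone H3 lysine methyltransferase EZH2, at 20 mg/kg in 20% Captisol, by intraperitoneal injection each day from 6 h after surgery until day 7. The MI group had a permanent ligature of the left descending coronary artery and was injected with the Captisol vehicle, and the Sham group had the sham operation and the same vehicle. The sample names do not state the surgery of the GSK mice, which were taken as infarcted from the protocol, and no sham-operated mice given GSK-343 are among the libraries. RNA of 2 animals was mixed in each of Sham replicates 1 and 2. The animal label S5 stands in the names of both Sham replicate 2 and MI replicate 3, and the labels do not say whether it is the same animal number.

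Values are FPKM, the fragments of a gene divided by its length and scaled by library. The length is that of all annotated exons joined, 1246 bases for Mt1 and 10008 for Sod2. Levels set beside each other between genes therefore depend on that length, which can exceed that of the transcripts present. Depth was 21.5 M to 26.8 M counted fragments per library. The scaling used a total other than this depth, and by it a single fragment of a 1 kb gene was worth 0.0357 to 0.0478 FPKM. The summed FPKM of 10 cardiomyocyte markers lay at 15560 to 22660 in GSK, 11970 to 24550 in MI and 19480 to 24880 in Sham, so the defining genes of heart muscle were high in every library. On the second principal component GSK replicates 3 and 4 and MI replicate 4 stood apart, and their mitochondrially encoded transcripts took 46.4%, 48.7% and 40.6% of all FPKM, against 23.2% to 32.7% in the other GSK and MI libraries and 41.2% to 42.2% in Sham. These 3 libraries also held 3 of the 5 highest Mt1 values of the study.

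Cells meet oxidants and electrophiles with a shared program. KEAP1 holds the transcription factor NRF2 (gene Nfe2l2) for degradation until its cysteines are modified, after which NRF2 enters the nucleus and binds antioxidant response elements with small MAF proteins. Its targets include Hmox1, Nqo1, Txnrd1, Srxn1, Gclc and Gclm. BACH1 competes for the same elements and is best known as a repressor of Hmox1. Metallothioneins are small cysteine-rich proteins that bind zinc and copper, and their genes are driven by zinc through MTF1 at metal response elements and by glucocorticoids. Sod2 and Gpx3 stand somewhat apart, as the manganese superoxide dismutase of the mitochondrial matrix and the secreted, selenium-dependent glutathione peroxidase of plasma.

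Mt1 and Mt2 are neighbours on the plus strand of chromosome 8 and code for metallothioneins of the same length. Their coding sequences are shown because the levels listed for this pair lie very far apart. Both, from GENCODE vM21, run to 186 bases with 61 codons before the stop, 20 of them for cysteine. They differ at 38 positions, written in capitals below, and are identical at 79.6%, with a longest identical run of 20 bases.
Mt1: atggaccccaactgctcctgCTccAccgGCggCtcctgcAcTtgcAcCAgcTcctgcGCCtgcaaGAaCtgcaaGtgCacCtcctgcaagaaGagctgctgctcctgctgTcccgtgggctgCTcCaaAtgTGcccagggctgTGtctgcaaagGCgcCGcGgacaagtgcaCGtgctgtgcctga
Mt2: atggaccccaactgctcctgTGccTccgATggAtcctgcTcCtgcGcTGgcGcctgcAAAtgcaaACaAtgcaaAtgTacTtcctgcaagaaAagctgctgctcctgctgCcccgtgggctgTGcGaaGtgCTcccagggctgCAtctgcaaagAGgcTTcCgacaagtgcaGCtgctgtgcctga
No 50-base stretch of the transcripts of either gene occurs, read on the same strand, in a transcript of a gene outside the list. Reverse complements were not searched, here or for the other genes, so exons shared with a gene on the other strand are not seen by it. Whole transcripts of the listed genes were not searched against each other.

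The promoters of the pair, from RefSeq on GRCm38.p6, are windows of 300 bases that span the gene start, most of them upstream of it, and are shown with the core of the metal response element in capitals, spelled TGCACNC or TGCGCNC and searched on both strands. Mt1 (chr8:94178839-94179138, plus strand) holds 3 matches and Mt2 (chr8:94172368-94172667, plus strand) holds 4. Of 32851 promoters of this length, 25.7% hold at least 1 match and 1.97% hold at least 3.
Mt1 promoter: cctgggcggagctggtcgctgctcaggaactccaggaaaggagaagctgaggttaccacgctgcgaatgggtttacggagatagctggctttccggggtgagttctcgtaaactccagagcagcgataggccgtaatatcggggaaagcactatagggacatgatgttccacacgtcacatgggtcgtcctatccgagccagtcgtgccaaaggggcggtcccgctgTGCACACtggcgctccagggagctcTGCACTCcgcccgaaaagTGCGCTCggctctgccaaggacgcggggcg
Mt2 promoter: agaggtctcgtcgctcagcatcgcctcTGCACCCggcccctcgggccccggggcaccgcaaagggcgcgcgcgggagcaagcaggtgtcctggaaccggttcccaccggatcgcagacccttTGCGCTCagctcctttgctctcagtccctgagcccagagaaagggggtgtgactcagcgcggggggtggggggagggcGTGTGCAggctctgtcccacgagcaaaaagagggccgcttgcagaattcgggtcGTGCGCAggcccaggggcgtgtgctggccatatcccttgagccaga
The core of the antioxidant response element, TGACNNNGC on either strand, was found in 12.4% of the promoters. Among the genes described here it occurred in the windows of Mt2, Srxn1 and Gclm and in 1 of the 3 windows of Txnrd1, and these letters were not in the windows of Mt1, Nqo1, Sod2 and Gpx3. A match is a run of letters and was not tested as a binding site.

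Mt1 (ENSMUSG00000031765, mm10 chromosome 8, 94179082 to 94180327) had the second highest mean FPKM of the list in every group. Its FPKM were 87.4, 84.2, 154.6, 134.9 and 119.8 in GSK hearts, 91.4, 143.4, 104.3, 173.6 and 157.9 in MI hearts, and 111.3, 84.9, 79.1, 73.8 and 83.6 in Sham hearts. The groups overlapped, and Sham replicate 1 lay above 2 GSK and 2 MI hearts. Means were 116.2 ± 30.4 FPKM in GSK, 134.1 ± 35.1 in MI and 86.5 ± 14.5 in Sham (SD, n = 5 each). Mt1 rose in MI against Sham by 0.60 ± 0.20 on the scale of log2(FPKM + 1), the pseudocount of 1 understating changes of low genes (limma, SE, adjusted p = 0.0265). The difference was 0.40 ± 0.20 for GSK against Sham (adjusted p = 0.181) and -0.20 ± 0.20 for GSK against MI (adjusted p = 0.577), so neither passed. The call in MI was lost when MI replicate 2, 4 or 5 or Sham replicate 3, 4 or 5 was left out in turn (adjusted p = 0.0548, 0.0641, 0.0576, 0.0548, 0.0631 and 0.0510), and the log2 differences were then 0.56, 0.50, 0.53, 0.57, 0.55 and 0.59.

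Mt2 (ENSMUSG00000031762, mm10 chromosome 8, 94172664 to 94173568) was listed at or near 0 throughout. It held 0, 0, 1, 1 and 3 fragments in the GSK libraries, 0, 7, 0, 0 and 3 in the MI libraries, and 2, 0, 0, 0 and 0 in the Sham libraries. A count of 0 allows up to 3 fragments by counting error alone, which is 0.182 to 0.244 FPKM, so no difference between groups was detectable from these counts and Mt2 was not tested. Of its 588 exon bases, 432 (73.5%) are shared with Gm45774, an antisense gene on the other strand that was itself listed at 0 to 0.171 FPKM. The strand setting of the counting is not given in the sources used here, and the part of this overlap in the low values of Mt2 was not tested. The 9 genes other than Mt2 passed the filter of at least 1 FPKM in at least 5 libraries.

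**Figure D1:**
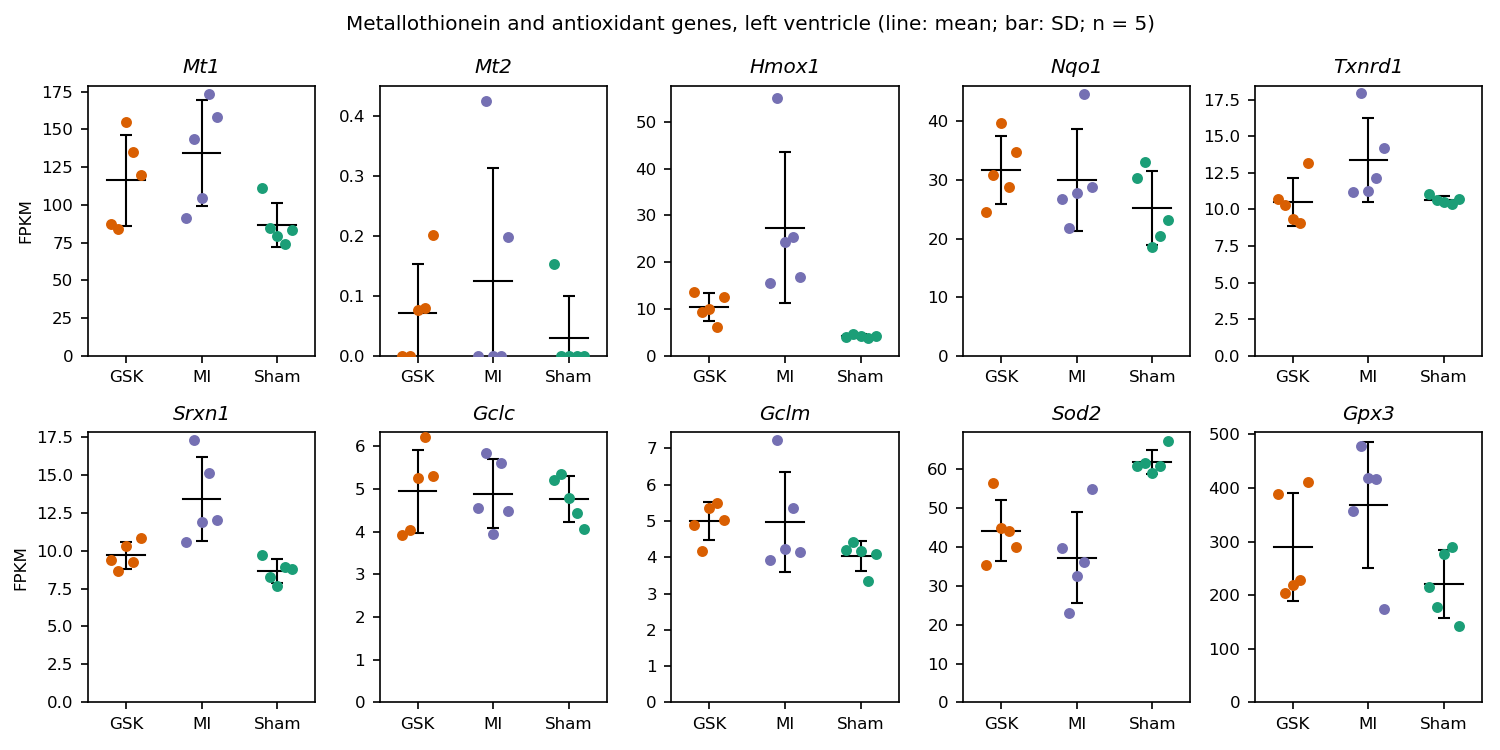
FPKM of the 10 genes in each library (points), with the group mean (line) and SD (bar, n = 5), for GSK, MI and Sham; each panel has its own linear axis from 0. Hmox1 runs from 6.09 to 13.7 in GSK and from 15.5 to 55.1 in MI, above 3.88 to 4.75 in Sham, while Sod2 is 58.9 to 67.2 in Sham and no more than 56.4 in any other library.

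Of the 9 genes tested, MI hearts against Sham hearts had Hmox1, Srxn1 and Mt1 higher, Sod2 lower, and Nqo1, Txnrd1, Gclc, Gclm and Gpx3 without a call (limma, adjusted p under 0.05 over 12585 genes). Over all genes tested 21.9% were called higher and 21.9% lower in this comparison, so calls are common in it. In 3 genes (Hmox1, Txnrd1 and Srxn1) all MI libraries lay above all Sham libraries and in 1 (Sod2) all lay below, against 15.7% and 14.2% of all genes. The median log2 difference of the 9 genes was 0.28 and that of all genes -0.02. All genes called were split evenly, 2757 higher and 2758 lower, and with the genes of the mitochondrial genome set aside and the totals made equal 63.6% of the called genes were higher, Hmox1, Srxn1 and Mt1 still among them, and Txnrd1 too.

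**Figure D2:**
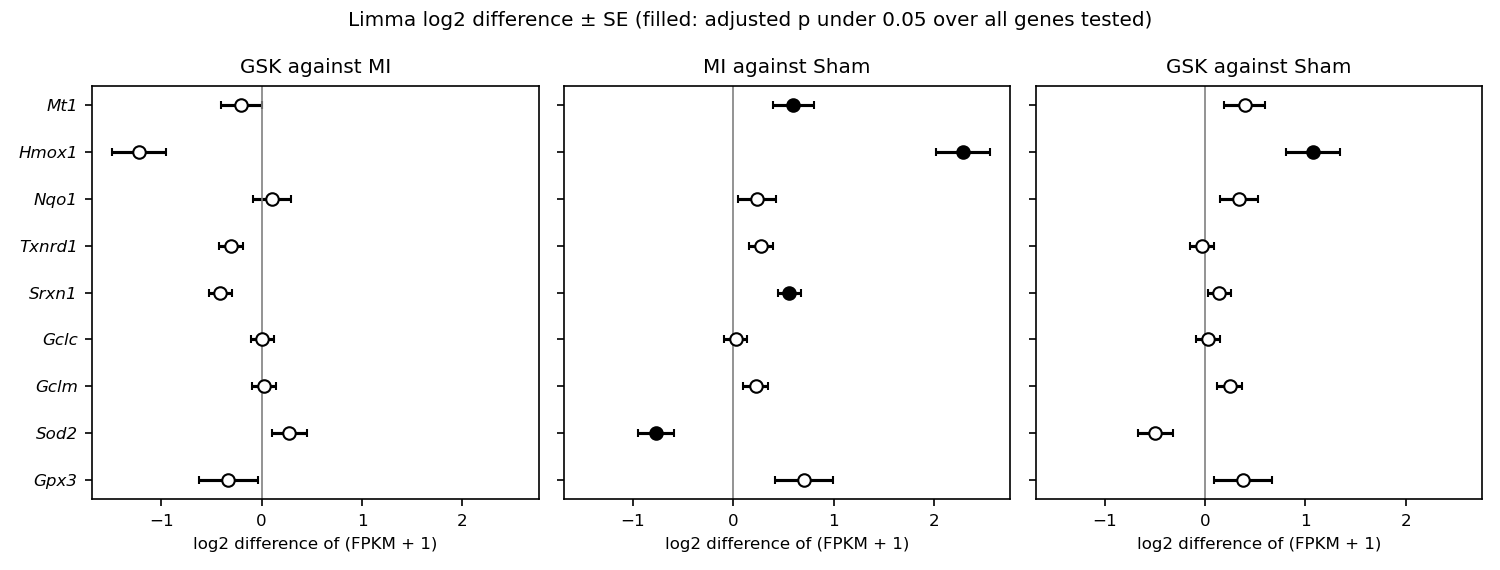
Limma log2 differences of (FPKM + 1) with their SE for the 9 tested genes, in GSK against MI, MI against Sham and GSK against Sham; filled points have an adjusted p under 0.05 over all genes tested. Hmox1 lies at -1.22, 2.29 and 1.07 in these comparisons, and no gene is filled in GSK against MI.

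Hmox1 (ENSMUSG00000005413, mm10 chromosome 8, 75093621 to 75100589) codes for haem oxygenase 1, the inducible enzyme that opens haem to biliverdin, iron and carbon monoxide. Its FPKM were 13.7, 9.42, 9.97, 6.09 and 12.7 in GSK hearts, 15.5, 55.1, 24.4, 25.3 and 16.8 in MI hearts, and 4.07, 4.75, 4.22, 3.88 and 4.32 in Sham hearts. The 3 groups did not overlap: every GSK heart lay below every MI heart, and both lay above every Sham heart. How many of all genes had GSK libraries wholly above the Sham libraries was not computed. The mean was 10.4 ± 2.98 FPKM in GSK, 27.4 ± 16.1 in MI and 4.25 ± 0.328 in Sham (SD, n = 5 each). Hmox1 rose 6.46-fold by the means in MI against Sham, a log2 difference of 2.29 ± 0.27 (limma, adjusted p = 3.42e-05), which was the largest of the 9. It rose in GSK against Sham by 1.07 ± 0.27 (adjusted p = 0.0149). MI replicate 2 had the highest value by far, and without it the difference of MI against Sham was 2.01 (adjusted p = 2.87e-05).

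In GSK against MI the log2 difference of Hmox1 was -1.22 ± 0.27 with an unadjusted p of 0.000386 and an adjusted p of 0.0868 by limma, which did not pass. It passed without MI replicate 1 (-1.38, adjusted p = 0.0240) and without GSK replicate 5 (-1.29, adjusted p = 0.0439). It was -0.93 without MI replicate 2 (adjusted p = 0.137) and -0.99 without the 3 libraries that stood apart (adjusted p = 0.441). Among all genes tested, the GSK libraries lay wholly below the MI libraries for 0.858% and wholly above them for 1.15%.

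Macrophages, which take up dying red cells and express Hmox1 strongly, were followed by 10 marker genes, all of which were higher in MI than in Sham and 8 of which were higher in GSK than in Sham. Their summed FPKM spanned 432.3 to 988.2 in GSK, 638.7 to 1076 in MI and 297.1 to 374.2 in Sham. GSK replicate 1 and MI replicate 2 had nearly the same sum, 988.2 and 979.4, with Hmox1 at 13.7 and 55.1 FPKM. In GSK replicates 1 to 5 the sums were 988.2, 547.6, 560.1, 432.3 and 746.4, in the same order by size as Hmox1. In MI replicates 1 to 5 the sums were 708.5, 979.4, 1076, 824.8 and 638.7, in another order than Hmox1. In bulk tissue more cells of a type and more RNA per cell cannot be told apart, and the part of the macrophages in the Hmox1 values was not tested. Summed erythroid markers spanned 103.0 to 442.1 FPKM in GSK, 327.8 to 469.9 in MI and 98.1 to 437.7 in Sham. Summed neutrophil markers spanned 2.58 to 10.4 FPKM in GSK, 5.87 to 17.5 in MI and 3.57 to 6.04 in Sham. Of the 7 neutrophil markers 3 were tested, 1 of them higher in MI than in Sham, and Ly6g and Mmp8 were under 0.5 FPKM in every library. The part of these cells in the Hmox1 values was not tested. Across the 15 libraries the genes most like Hmox1 by Pearson r of log2(FPKM + 1) were Il4ra (0.98), Rnh1 (0.98) and Sprr1a (0.98), a description over libraries that share their groups.

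**Figure D3:**
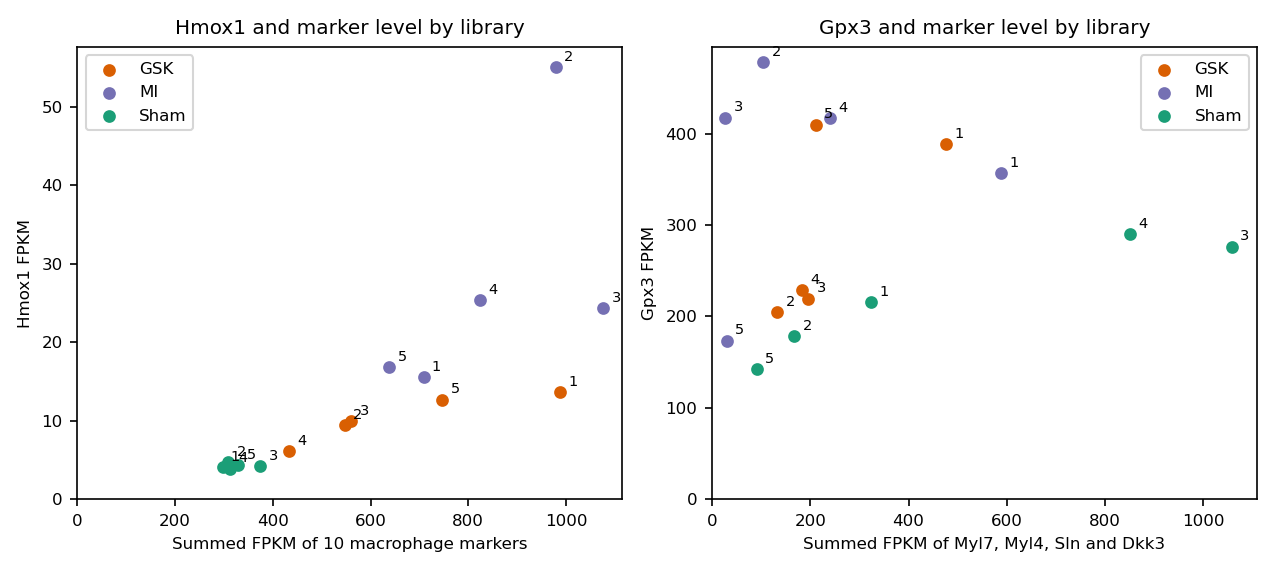
Left, Hmox1 FPKM of each library against the summed FPKM of 10 macrophage markers; right, Gpx3 FPKM against the summed FPKM of the atrial markers Myl7, Myl4, Sln and Dkk3; numbers are replicates of GSK, MI and Sham. GSK replicate 1 and MI replicate 2 lie near the same macrophage sum (988.2 and 979.4) with Hmox1 at 13.7 and 55.1. Among the GSK points on the left, Hmox1 and the macrophage sum have the same order. On the right the Sham points with the higher atrial sums have the higher Gpx3. There, MI replicates 3 and 5 lie near the same sum (27.2 and 30.4) with Gpx3 at 417.8 and 173.6.

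Srxn1 (ENSMUSG00000032802, mm10 chromosome 2, 152105516 to 152111376) codes for sulfiredoxin, which reactivates over-oxidised peroxiredoxins. Its FPKM were 9.38, 8.63, 10.3, 9.23 and 10.8 in GSK hearts, 10.6, 17.3, 11.9, 15.1 and 12.0 in MI hearts, and 9.73, 8.27, 7.64, 8.90 and 8.77 in Sham hearts. Every MI heart lay above every Sham heart, and the GSK hearts overlapped with both. Srxn1 rose in MI against Sham by 0.56 ± 0.11 on the log2 scale, 1.54-fold by the means (limma, adjusted p = 0.00124). The difference of GSK against MI was -0.41 ± 0.11 (adjusted p = 0.107, and 0.0368 without MI replicate 1), and that of GSK against Sham was 0.14 ± 0.11 (adjusted p = 0.386). Over the 15 libraries Srxn1 ran with Hmox1 at a Pearson r of 0.90, and at 0.72 once the group means had been removed.

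Txnrd1 (ENSMUSG00000020250, mm10 chromosome 10, 82833951 to 82897712), the cytosolic thioredoxin reductase, had FPKM of 10.7, 10.3, 9.33, 9.05 and 13.2 in GSK hearts, 11.2, 18.0, 11.2, 12.1 and 14.2 in MI hearts, and 11.04, 10.6, 10.5, 10.4 and 10.7 in Sham hearts. The Sham values were the tightest of any gene of the list, with a coefficient of variation of 2.31%, and every MI heart lay above them, replicates 1 and 3 by little and replicates 2 and 5 by most. The difference of MI against Sham was 0.28 ± 0.12 (limma, adjusted p = 0.0692), which did not pass, and it passed without MI replicate 1 (adjusted p = 0.0416) or MI replicate 3 (adjusted p = 0.0489). For GSK against MI it was -0.31 ± 0.12 (adjusted p = 0.171), and for GSK against Sham -0.03 ± 0.12 (adjusted p = 0.890).

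The glutathione-making ligase and Nqo1 gave no call in any comparison. Gclc, the catalytic subunit of glutamate-cysteine ligase, averaged 4.94 ± 0.962 FPKM in GSK, 4.89 ± 0.804 in MI and 4.77 ± 0.534 in Sham (SD, n = 5 each), with limma differences of 0.01 ± 0.12 for GSK against MI, 0.02 ± 0.12 for MI against Sham and 0.03 ± 0.12 for GSK against Sham. Gclm, its modifier subunit, averaged 4.99 ± 0.521 FPKM in GSK, 4.98 ± 1.38 in MI and 4.05 ± 0.415 in Sham, and its differences were 0.02 ± 0.12 for GSK against MI (adjusted p = 0.927), 0.22 ± 0.12 for MI against Sham (adjusted p = 0.157) and 0.25 ± 0.12 for GSK against Sham (adjusted p = 0.170). The high SD of Gclm in MI came with a single heart, replicate 2 at 7.24 FPKM, the other 4 lying at 3.93 to 5.36. Nqo1, the quinone reductase often used as a readout of NRF2, spanned 24.5 to 39.8 FPKM in GSK, 21.9 to 44.7 in MI and 18.6 to 33.1 in Sham. Its differences were 0.10 ± 0.19 for GSK against MI (adjusted p = 0.786), 0.24 ± 0.19 for MI against Sham (adjusted p = 0.330) and 0.34 ± 0.19 for GSK against Sham (adjusted p = 0.223). Of the transcripts of Gclm, 3.9% of 50-base stretches occur in other genes, most of them in Ppia.

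Sod2 (ENSMUSG00000006818, mm10 chromosome 17, 13006846 to 13040063) was the gene of the list that fell. Its FPKM were 35.3, 56.4, 44.9, 44.0 and 39.9 in GSK hearts, 39.8, 22.9, 32.5, 36.2 and 54.9 in MI hearts, and 60.7, 61.6, 58.9, 60.8 and 67.2 in Sham hearts. Every GSK and every MI heart lay below every Sham heart, and the GSK and MI hearts overlapped. The share of all genes that lay wholly below Sham was computed for MI, at 14.2%, but not for GSK. In MI the mean was 0.602 of that in Sham, a log2 difference of -0.77 ± 0.18 (limma, adjusted p = 0.00280). The difference of GSK against Sham was -0.49 ± 0.18 (adjusted p = 0.0627), which did not pass, and it passed without MI replicate 2 (adjusted p = 0.0213), MI replicate 5 (adjusted p = 0.0269) or GSK replicate 2 (adjusted p = 0.0350), the MI hearts entering through the shared estimate of the spread. For GSK against MI it was 0.28 ± 0.18 (adjusted p = 0.374).

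Beside the fall of Sod2 in MI, 7 of 10 cardiomyocyte markers and 12 of 13 mitochondrially encoded genes were lower in MI than in Sham, and their part in it was not tested. MI replicate 2, with the lowest Sod2, also had the lowest cardiomyocyte sum, 11970 FPKM, and MI replicate 5, with the highest Sod2 of the MI hearts, had the highest, 24550 FPKM. With the genes of the mitochondrial genome set aside and the totals made equal the Sod2 difference of MI against Sham was -0.67 (adjusted p = 0.00154). Of the 10012 stretches of 50 bases in Sod2 transcripts, 2107 occur in other genes, 17.6% of the total in AC166110.4. The effect of this sharing on the level of Sod2 was not tested.

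Gpx3 (ENSMUSG00000018339, mm10 chromosome 11, 54902453 to 54910377) had the highest FPKM of the list, at 388.7, 204.4, 219.5, 228.6 and 410.2 in GSK hearts, 357.0, 478.4, 417.8, 417.4 and 173.6 in MI hearts, and 215.9, 178.8, 276.4, 290.3 and 142.6 in Sham hearts. In MI 4 hearts lay above all Sham hearts and replicate 5 lay among them, and the GSK hearts split into 2 high and 3 low values. The difference of MI against Sham was 0.71 ± 0.29 (limma, adjusted p = 0.0604), which did not pass, and it passed without MI replicate 5 (0.96, adjusted p = 0.00639) or Sham replicate 4 (0.82, adjusted p = 0.0487). For GSK against MI it was -0.33 ± 0.29 (adjusted p = 0.524), and for GSK against Sham 0.38 ± 0.29 (adjusted p = 0.377).

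The gene most like Gpx3 over the 15 libraries was Nppa, the natriuretic peptide of atria and stressed ventricles, at a Pearson r of 0.95, followed by Gm15867 (0.91) and Pxdc1 (0.90). Nppa averaged 733.6 FPKM in GSK, 1159 in MI and 303.0 in Sham. Since atria express Nppa, the other atrial markers were set beside it. The sum of Myl7, Myl4, Sln and Dkk3 spanned 132.9 to 476.2 FPKM in GSK, 27.2 to 588.3 in MI and 91.5 to 1058 in Sham. In Sham replicates 1 to 5 the sums were 324.1, 167.6, 1058, 851.9 and 91.5, with Gpx3 at 215.9, 178.8, 276.4, 290.3 and 142.6 FPKM, so the Sham hearts with the higher atrial sums also had the higher Gpx3. In GSK the lowest sum, 132.9 in replicate 2, came with the lowest Gpx3 (204.4) and the highest, 476.2 in replicate 1, with the second highest (388.7). In MI, replicates 2, 3 and 4 had sums of 104.4, 27.2 and 240.7 with Gpx3 at 478.4, 417.8 and 417.4 FPKM, and replicates 1 and 5 had sums of 588.3 and 30.4 with Gpx3 at 357.0 and 173.6. The part of atrial tissue in the Gpx3 values was not tested. For Mt1 the most like genes were Strn (0.92), Babam2 (0.92) and Rars (0.91).

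**Figure D4:**
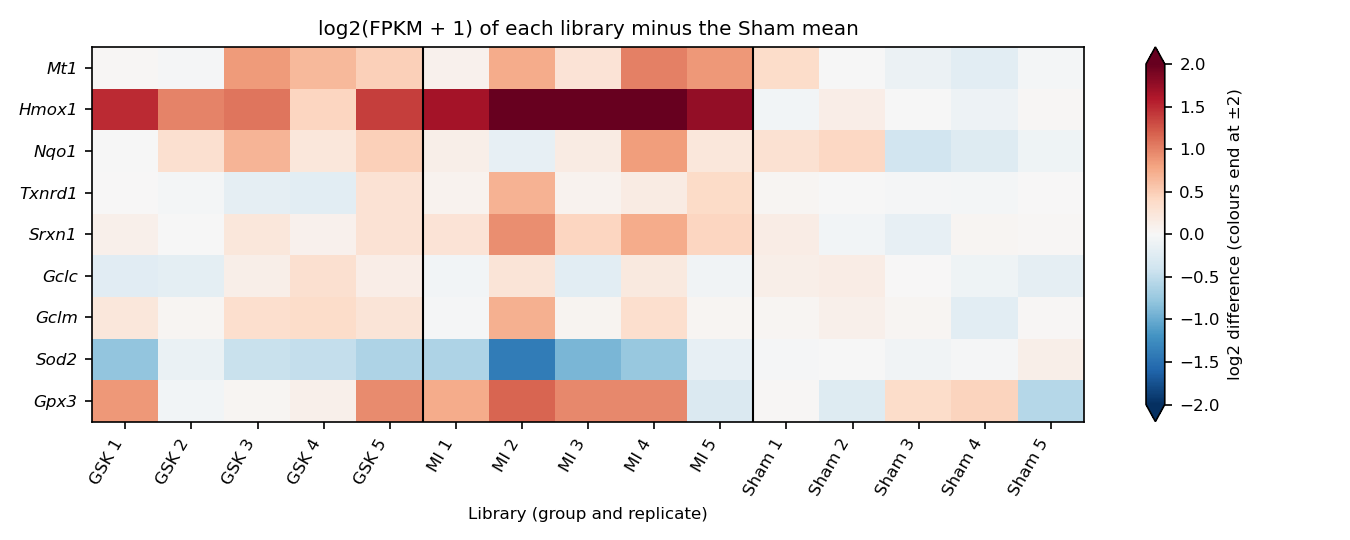
log2(FPKM + 1) of each library minus the Sham mean for the 9 tested genes, libraries in columns (GSK, MI, Sham) and genes in rows; red is above and blue below the Sham mean, and colours end at ±2. Hmox1 is at the end of the colour scale in MI replicates 2, 3 and 4, Sod2 is lowest in MI replicate 2, and the Nqo1 and Gclc rows show no block by group.

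MI replicate 2 was the highest MI heart for 6 of the 9 tested genes (Hmox1, Txnrd1, Gclc, Gclm, Srxn1 and Gpx3) and the lowest for 2 (Nqo1 and Sod2). The library was also the farthest from Sham on the first principal component, at -50.7, with Sham at 28.2 to 39.0. Over the 15 libraries the highest pairwise r was that of Hmox1 and Srxn1, and the lowest were those of Hmox1 and Sod2 (-0.89) and Sod2 and Gpx3 (-0.84). With the group means removed, r was 0.76 for Gclm and Srxn1, 0.72 for Hmox1 and Txnrd1, 0.68 for Hmox1 and Gclm, and 0.63 for Txnrd1 and Srxn1. MI replicate 2, the highest MI heart for each of these NRF2 targets, enters all of these values. In GSK, replicate 4 had the lowest Hmox1 (6.09 FPKM) and the highest Gclm (5.50 FPKM). Gclc, also a target, ran with Gclm at 0.71 and Srxn1 at 0.55, but with Txnrd1 at 0.21 and Hmox1 at 0.125. Nqo1, a target as well, ran with Hmox1 at -0.16 and with Txnrd1 at -0.22 on the same measure, and with Mt1 at 0.55.

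GSK hearts against MI hearts gave no call among the 9 genes, and limma called 0.0% of all genes higher and 0.0% lower in this comparison. At an unadjusted p under 0.05 Hmox1, Srxn1 and Txnrd1 were lower and no gene of the list was higher, against 10.1% of all genes lower (1274) and 10.8% higher (1364), and voom on the recovered fragments called 2 genes higher and 0 lower over all genes. Without MI replicate 1 limma called 204 genes higher and 188 lower, and without GSK replicate 5 it called 154 and 134. The median log2 difference of the 9 genes was -0.20, with 0.00 for all genes. The MI hearts enter both this comparison and that of MI against Sham, so that a high MI heart moves both.

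GSK hearts against Sham hearts had 1 of the 9 genes higher, Hmox1, and none lower, where 10.8% of all genes were called higher and 7.58% lower. The call of Hmox1 was lost without the 2 mixed Sham libraries (adjusted p = 0.0525) and without GSK replicates 1 and 2, whose names carry another letter (adjusted p = 0.0643), while its log2 difference was 1.10 and 0.96 in these fits, against 1.07 with all libraries. The median difference of the 9 genes was 0.25, with -0.02 for all genes. With the genes of the mitochondrial genome set aside and the totals made equal, 82.2% of the called genes were higher in place of 58.7%, and the median of all genes was 0.09.

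Other genes of the same pathways were followed by lists, to be read against the 21.9% of all genes called in each direction in MI against Sham. Of 12 regulators of the NRF2 pathway tested 3 were higher and 3 lower, near that background, with a median of 0.00. Nfe2l2 itself rose, with 17.3 ± 1.05 FPKM in GSK, 19.6 ± 3.10 in MI and 15 ± 1.55 in Sham (SD, n = 5 each; MI against Sham 0.36 ± 0.10, limma, adjusted p = 0.0108). The small MAF genes Maff (0.83 ± 0.24, adjusted p = 0.0121) and Mafk (0.71 ± 0.19, adjusted p = 0.00811) rose with it. Bach1 fell by 0.27 on the log2 scale (adjusted p = 0.0302), as did Cul3, the ubiquitin ligase scaffold that works with KEAP1 (-0.40, adjusted p = 0.0305), and the related factor Nfe2l1 (-0.43, adjusted p = 0.00481). Keap1 differed by -0.14 ± 0.09 (adjusted p = 0.224).

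Of 28 other NRF2 targets tested, 9 rose and 5 fell in MI against Sham, with a median of 0.07. Ftl1, the ferritin light chain, rose by 0.97 ± 0.17 (limma, adjusted p = 0.000505), with 114.6 ± 22.6 FPKM in GSK, 178.7 ± 48.6 in MI and 88.8 ± 7.77 in Sham (SD, n = 5 each). Pgd, phosphogluconate dehydrogenase (0.61, adjusted p = 0.00130), and Txn1, thioredoxin (0.43, adjusted p = 0.0120), rose too. Gstm1, a glutathione transferase, fell by 0.92 (adjusted p = 0.00123) and the aldehyde oxidase Aox1 by 0.87 (adjusted p = 0.000362). Slc7a11, the cystine carrier that feeds glutathione synthesis, averaged 0.0365 FPKM in MI, its highest group mean, and was not tested.

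Among 15 other glutathione genes tested, 2 rose and 6 fell in MI against Sham, with a median of -0.24. Gstk1, a mitochondrial and peroxisomal transferase, fell by 1.21 on the log2 scale (limma, adjusted p = 0.000984), and Gstt1 by 0.68 (adjusted p = 0.00218). Slc3a2, the heavy chain partner of Slc7a11 and other amino acid carriers, rose by 0.40 (adjusted p = 0.0207), and glutathione synthetase Gss by 0.21 (adjusted p = 0.0454). Gsr, glutathione reductase, differed by 0.09 ± 0.08 (adjusted p = 0.373).

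A further list held other superoxide and peroxide enzymes with related antioxidant genes such as Msrb2 and Sesn1. Of its 32 genes tested, 7 rose and 9 fell in MI against Sham, with a median of -0.12, and the share that rose is that of all genes. Gpx7 rose by 1.25 ± 0.18 (limma, adjusted p = 0.000104), Gpx1 by 0.98 ± 0.11 (adjusted p = 3.36e-05) and Sod3, the extracellular superoxide dismutase, by 0.98 ± 0.16 (adjusted p = 0.000271). All 3 were also higher in GSK than in Sham. Of 8 fibroblast markers 6 were higher in MI than in Sham and 5 higher in GSK than in Sham, and their summed FPKM spanned 448.8 to 1695 in GSK, 734.2 to 1783 in MI and 256.2 to 360.7 in Sham, and their part in these rises was not tested. Msrb2 (-0.98, adjusted p = 0.00208) and Sesn1 (-0.82, adjusted p = 0.000389) fell. Sod1 (-0.42, adjusted p = 0.0569), Cat (-0.23, adjusted p = 0.0948), Gpx4 (-0.11, adjusted p = 0.575) and Txnip (-0.60, adjusted p = 0.138) did not pass.

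Zinc and copper genes, the metal side of metallothionein, had 9 of 20 tested higher and 3 lower in MI against Sham, with a median of 0.19. The zinc importers Slc39a6 (0.99 ± 0.19, limma, adjusted p = 0.000863) and Slc39a1 (0.87 ± 0.09, adjusted p = 2.22e-05) rose, and Slc39a14 differed by 0.27 (adjusted p = 0.0568). Mt3, a metallothionein best known from brain, averaged 1.02 ± 0.323 FPKM in GSK, 0.660 ± 0.444 in MI and 1.58 ± 0.701 in Sham (SD, n = 5 each) and fell by 0.62 in MI against Sham (adjusted p = 0.0209). Mtf1, the zinc-sensing factor, fell by 0.29 (adjusted p = 0.00150), and Slc30a9 by 0.46 (adjusted p = 0.000759). Slc30a1, the zinc exporter that MTF1 induces, differed by -0.17 ± 0.08 (adjusted p = 0.103).

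Haem and iron genes around Hmox1 had few calls in MI against Sham, 3 of 23 tested higher and 2 lower, with a median of 0.08. Besides Ftl1, the haemoglobin-binding plasma protein gene Hp rose (1.11 ± 0.42, limma, adjusted p = 0.0457), and the iron exporter Slc40a1 (-0.53, adjusted p = 0.0130) and ferrochelatase Fech (-0.52, adjusted p = 0.00285) fell. Hmox2, the constitutive haem oxygenase, differed by 0.19 ± 0.12 (adjusted p = 0.234), and Fth1, the ferritin heavy chain, by -0.25 ± 0.11 (adjusted p = 0.0849).

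Genes that answer to glucocorticoids, which also drive metallothioneins, were set beside Mt1, and 1 of 18 tested rose and 6 fell in MI against Sham, with a median of -0.27. Klf15 fell by 1.63 (limma, adjusted p = 8.45e-05), Klf9 by 1.10 (adjusted p = 3.42e-05) and Tsc22d3, which codes for GILZ, by 0.55 (adjusted p = 0.0121). Lcn2 rose by 1.63 ± 0.28 (adjusted p = 0.000376), and Fkbp5 differed by 0.58 ± 0.30 (adjusted p = 0.125).

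Genes of oxidant sources had 8 of 12 tested higher and 2 lower in MI against Sham, with a median of 0.60. Subunits of the phagocyte NADPH oxidase were among them, with Cybb at 1.10 ± 0.20 (limma, adjusted p = 0.000566), Ncf4 at 1.21 ± 0.19 (adjusted p = 0.000239) and Ncf1 at 1.18 ± 0.20 (adjusted p = 0.000371). The macrophage markers given beside Hmox1 rose in the same comparison, and their part in these changes was not tested. Maob, the monoamine oxidase, fell by 1.44 (adjusted p = 0.000987) and Xdh by 0.42 (adjusted p = 0.0115). In GSK against Sham 5 of the 12 were higher and 0 lower, and in GSK against MI none of the genes in these lists was called by limma.

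**Figure D5:**
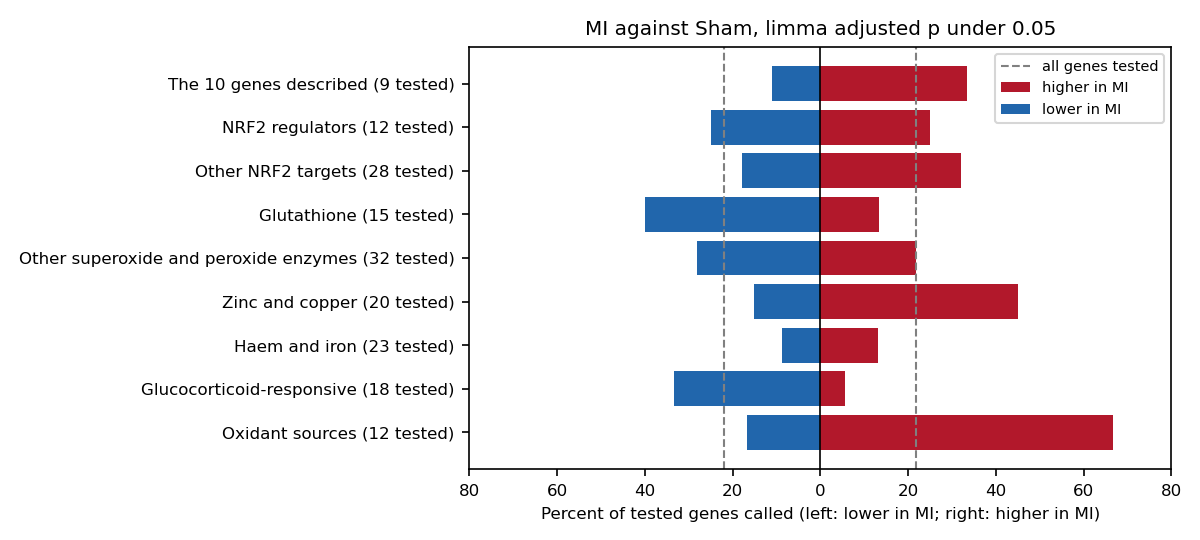
Percent of the tested genes of each list called higher (right, red) or lower (left, blue) in MI than in Sham by limma at an adjusted p under 0.05; dashed lines mark the percent over all genes tested, 21.9 on each side. Oxidant sources (8 of 12) and zinc and copper genes (9 of 20) reach farthest to the right, and glutathione genes (6 of 15) and glucocorticoid-responsive genes (6 of 18) farthest to the left.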

How the data were processed

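Poly-A RNA was sequenced as 150 nt paired ends from 1000 ng of total RNA per left ventricle, per the labels' protocols. The authors deposited FPKM values for 54532 genes in 15 libraries. HISAT2, featureCounts of Subread, DESeq2, R 3.5.1 and build mm10 are named in the submitters' processing notes without a role, and no source used here gives the annotation, the strand setting or the handling of shared fragments. Multiplied by gene length and divided by a step found for each library, 100% of the FPKM came out whole (tolerance 0.01), which gave fragments per gene and depth. These FPKM are scaled by a total other than the fragment total of the library, and the gap differed by group. In Sham the total lay below the fragments in every library (21.6 M for 23.7 M in replicate 5). In MI it lay above them (28.0 M for 23.8 M in replicate 2) except in replicate 4 (20.9 M for 21.5 M). In GSK it lay above them in replicates 1, 2 and 5 and below in 3 and 4. A larger total lowers FPKM, and the voom alternative used the same totals. Scaling by the fragment total was not tried.

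Values were transformed as log2(FPKM + 1), with genes of at least 1 FPKM in at least 5 libraries kept (12585 genes). Group means of all 15 libraries were fitted with limma 3.58.1 in R 4.3.3 (eBayes with a mean trend), with Benjamini-Hochberg adjustment over all genes tested and calls at an adjusted p under 0.05. All printed p-values of genes come from this fit or its alternatives, and the fit was tested on simulated data. A count test was not the main result, because the unit is FPKM; voom on the recovered fragments, as an alternative, called 2732 genes higher and 2799 lower in MI against Sham. Replicates were taken as separate mice per the protocols, although the label S5 occurs in a Sham and in an MI library name.

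The members and the gene lists were chosen with earlier results of these data known. The text names all 10 members, a fixed set of related genes, and for each pathway list up to 2 largest called rises and 2 largest called falls in MI against Sham, with cell type markers given as sums. Likeness was computed for Mt1, Hmox1 and Gpx3. Ero1a, Ero1b and Nnt, a symbol on more than 1 row, were not analysed here. Coordinates of the members are the same in GENCODE vM21. Sequences were matched by gene name, with no RefSeq promoter used for Hmox1 and Gclc.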

Additional observations from a re-analysis of the deposited data

Results flagged for a closer look

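Hmox1 in MI replicate 2, at 55.1 FPKM, stood far above the other 4 MI hearts, its gap to the nearest of them taking 0.752 of the range of the group, where Dixon's critical value for 5 samples is 0.71. It was the only value past that limit among 27 combinations of a gene and a group, and chance passes about 1 in 20 of them.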

How the results depend on the processing

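Hmox1, Srxn1 and Sod2 kept their call and direction in MI against Sham under all 27 alternatives, and Mt1 kept its direction under 27 and its call under 19, with adjusted p from 0.00917 to 0.0641 (0.0583 without the filter on low values). Gpx3 passed in MI against Sham with quantile normalization (adjusted p = 0.0401), and Txnrd1 with mitochondrially encoded genes left out (adjusted p = 0.0317). Leaving out 1 replicate at a time, the number of genes of the list called lower in GSK than in MI spanned 0 to 2, and that called lower in GSK than in Sham 0 to 1. The number called higher in GSK than in Sham was 2 in a fit of the 2 groups alone (Gclm added), with 1 lower (Sod2), and 0 without the mixed Sham libraries and 0 without the GSK libraries named with G; fewer samples entered these fits.

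Differences that did not pass and turned were small. Without the 3 libraries that stood apart Gclc was -0.0199 in MI against Sham, -0.0756 in GSK against MI and -0.0956 in GSK against Sham, Gclm -0.0174 in GSK against MI and Txnrd1 0.0827 in GSK against Sham. Txnrd1 in GSK against Sham was 0.0946 with mitochondrially encoded genes left out, and Mt1 in GSK against MI was 0.0585 without the GSK libraries named with G. Over single replicates left out, Gclc spanned -0.0336 to 0.0837 in MI against Sham, -0.0654 to 0.0727 in GSK against MI and -0.0415 to 0.0966 in GSK against Sham, Gclm -0.0385 to 0.1469 in GSK against MI, and Txnrd1 -0.1058 to 0.0184 in GSK against Sham. The cause was not tested.

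Replicate numbers were not taken to pair the libraries. Deviations of libraries with the same number correlated at -0.09 to 0.22 in MI against Sham, -0.41 to 0.49 in GSK against MI and -0.20 to 0.03 in GSK against Sham. The highest, 0.49, was that of replicate 4 of GSK and MI, both among the libraries that stood apart. Libraries with different numbers were not set beside these, so the values cannot decide whether the numbers pair them. With the replicate block the calls in the list were 2 higher and 1 lower for MI against Sham, Mt1 missing the threshold (adjusted p = 0.0501), 0 and 0 in GSK against MI, and 1 and 0 in GSK against Sham, and over all genes 924 were higher and 535 lower in GSK than in Sham, against 1354 and 954 without it. Over all genes in GSK against MI, limma called 3 higher and 0 lower with a pseudocount of 0.1, 19 and 7 without MI replicate 4, and 6 and 1 without GSK replicate 1. From its few counted fragments a difference in Mt2 was not detectable, and the part of the overlap with Gm45774 in them was not tested. Without the filter on low values Mt2 had an adjusted p of 0.456 in MI against Sham.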
